A study of Homo sapiens with 3 samples.

Results

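The genes described here are 32 small nucleolar RNA (snoRNA) host genes, read in the transcriptome of LX-2 cells, an established human hepatic stellate cell line. They were chosen by name alone: every gene symbol made of SNHG (small nucleolar RNA host gene) and a number, plus GAS5, DANCR, ZFAS1, EPB41L4A-AS1 and TAF1D. The rule found 32 of the 24254 gene symbols in the deposited table, and the rule uses no expression value. The question was how the levels of these genes compared between vehicle-treated cells and cells given rhFGF19, the recombinant form of the human hormone FGF19. Of the 3 libraries, 1 came from vehicle-treated cells, 1 from cells given rhFGF19 at 50 ng/mL and 1 from cells given 100 ng/mL. The series design gives 24 h of stimulation, whereas the sample descriptions say 72 h and 73 h, with the 2 rhFGF19 doses the other way round. The doses used here are those of the sample titles and the agent field, and 50 and 100 ng/mL are called the lower and the higher dose, so any order between them rests on that choice. With 1 library per condition there was no replicate check, no standard error and no p-value for any difference below, and both comparisons against vehicle share the same vehicle library.

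A snoRNA host gene makes a spliced RNA whose introns contain snoRNAs. The introns are processed into small RNAs that, with a fixed set of proteins, guide chemical modification or cleavage of ribosomal and spliceosomal RNA. Box C/D snoRNAs guide 2′-O-methylation, box H/ACA snoRNAs guide pseudouridylation, and the related scaRNAs act in Cajal bodies. The spliced host RNA often has little coding capacity. Many host transcripts begin with a C followed by a run of pyrimidines (the 5′ terminal oligopyrimidine tract, shared with ribosomal protein genes), are bound by ribosomes and are removed by nonsense-mediated decay, so that host RNA tends to accumulate when translation is blocked. GAS5 was named for its accumulation in growth-arrested cells.

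By position in RefSeq (GRCh38.p14), 31 of the 32 genes contained at least 1 named snoRNA or scaRNA, and SNHG28 contained none. The count was 83 for SNHG14, a very long imprinted transcript, and 73 for all the others together, made up of 40 box C/D snoRNAs, 29 box H/ACA snoRNAs and 4 scaRNAs. GAS5 held 11, SNHG1 and TAF1D held 8 each, and 15 of the genes held a single one. The group is not purely non-coding. TAF1D, which encodes a subunit of the RNA polymerase I factor SL1 and whose introns hold both snoRNA classes, is listed as coding in the deposited table, and GENCODE v29 also classes SNHG32 as protein-coding.

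The snoRNAs carried by SNHG32 and SNHG29, the hosts with the highest levels, and by SNHG16 and SNHG19, which lay near opposite ends of the differences from vehicle, show what these introns encode. The 6 printed here are box C/D snoRNAs, picked because both boxes can be marked in them. SNORD1A and SNORD1C of SNHG16 have no TGATGA and are not shown, nor is SNORD49B of SNHG29, which has both. In the lines below, capitals mark the first TGATGA (the C box) and the last CTGA (the D box) found in the GENCODE v29 transcript, on the host's strand in GRCh38.
SNORD48 (SNHG32, chr6:31835263-31835326, plus strand): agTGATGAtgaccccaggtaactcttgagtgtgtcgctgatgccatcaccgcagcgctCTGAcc
SNORD52 (SNHG32, chr6:31837076-31837142, plus strand): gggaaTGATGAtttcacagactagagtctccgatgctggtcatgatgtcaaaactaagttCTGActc
SNORD49A (SNHG29, chr17:16440036-16440106, plus strand): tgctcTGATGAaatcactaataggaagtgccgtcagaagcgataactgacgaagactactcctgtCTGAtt
SNORD65 (SNHG29, chr17:16441226-16441298, plus strand): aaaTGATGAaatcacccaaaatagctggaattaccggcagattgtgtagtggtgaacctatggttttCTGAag
SNORD1B (SNHG16, chr17:76561109-76561192, plus strand): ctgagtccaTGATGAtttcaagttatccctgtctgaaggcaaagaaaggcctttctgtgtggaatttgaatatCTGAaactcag
SNORD60 (SNHG19, chr16:2155023-2155105, minus strand): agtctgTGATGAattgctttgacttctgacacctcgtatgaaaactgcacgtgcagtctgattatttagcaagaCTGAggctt
Both motifs in that order were found in 95 of the 110 box C/D snoRNAs of the host genes that had a GENCODE v29 sequence. Among the 278 annotated box C/D snoRNA transcripts the share was 76.3%. Most of the 110 lie in SNHG14, since the other hosts together hold only 40 box C/D snoRNAs, so the count mainly describes that gene. The short boxes lie at the ends of each RNA, and the stretch between them includes the guide.

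The start sites of the same hosts are shown because the pyrimidine tract is the feature that host genes are known to share. Each host shown has the tract. The window of GAS5 was also planned, but it has no tract and is not shown. Each window runs from 30 bases before the RefSeq start to 30 bases from it on, the start included, and capitals mark a C followed by at least 4 further C or T within 10 bases of the start.
SNHG32 (chr6:31834886-31834945, plus strand): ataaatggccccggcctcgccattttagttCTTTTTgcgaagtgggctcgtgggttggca
SNHG29 (chr17:16438957-16439016, plus strand): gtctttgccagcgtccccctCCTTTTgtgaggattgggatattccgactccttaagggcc
SNHG16 (chr17:76557734-76557793, plus strand): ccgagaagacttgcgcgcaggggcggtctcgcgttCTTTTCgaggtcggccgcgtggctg
SNHG19 (chr16:2155329-2155388, minus strand): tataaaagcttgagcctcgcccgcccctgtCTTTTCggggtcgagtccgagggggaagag
In SNHG32 and SNHG19 the tract begins exactly at the annotated start, whereas in SNHG29 the marked run lies wholly before it. Of the 28 host genes with a RefSeq promoter, 18 (64.3%) held such a tract, against 33.5% of the 35116 promoters in the table. The tract was read on the gene's own strand only. Both shares count any such run near the start, not only runs that begin the RNA. The 18 include SNHG29 and SNHG14, whose runs begin at -10 and -8 from the start, and SNHG11 and SNHG26, at 9 and 10. GAS5, SNHG10 and SNHG3 had no match, and their RefSeq starts lie 163, 254 and 37 bases outside the positions that the deposited table gives. For TAF1D, which had the tract, and SNHG20, which did not, the RefSeq start lies well inside that position. The 14 tested hosts with the tract had median log2 fold changes of -0.083 (lower dose) and 0.042 (higher dose). The 8 without it had -0.022 and 0.017. SNHG6 (1.24 and 1.30) and SNHG15 (-0.56 and -0.68) were tested but had no promoter to scan, so they are in neither group. The groups had nearly the same centre, but the grouping depends on the RefSeq starts that were scanned.

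The deposited values are FPKM, which count fragments relative to transcript length and to the library's total. This scaling alone does not make libraries comparable, and the differences from vehicle below depend in part on how the libraries are scaled. The values are written to 2 decimals and hold no read counts, so depth is unknown. The values of all genes summed to between 276690 and 302243 per library. The number of rows at 1 FPKM or more was 8890 in vehicle and 10925 and 10894 in the rhFGF19 libraries. Of 10 stellate cell or fibroblast markers, 8 were at 1 FPKM or more in all libraries, while COL1A2 (0.03 to 0.14) and DES (0 to 0.08) were at or near 0. Of 6 hepatocyte markers, SERPINA1 (8.93 to 9.62) and ALB (1.89 to 2.49) were above 1 FPKM. Of 4 epithelial markers, CDH1 and CDX2 stayed under 0.5 FPKM, and EPCAM and KRT20 had no row. Of 4 blood markers, CD68 was at 39.8 to 47.5 FPKM, HBB was under 0.5, and PTPRC and CD3E had no row. In a bulk sample, fewer cells of a type and less RNA per cell cannot be told apart.

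A gene entered the comparison if its mean over the 3 libraries was at least 0.5 FPKM, and differences were taken as log2 of FPKM plus 0.1, a scale that makes the change of a low gene look smaller. A gene under 0.5 FPKM in vehicle could therefore enter through its rhFGF19 values, and such genes count among those higher than vehicle. Of the 32 host genes, 24 passed. In that set a gene is said to have risen or fallen past an absolute log2 fold change of 1, that is by more than 2-fold. By this measure 3 host genes rose at 50 ng/mL (12.5%), where 39.5% of the 12422 symbols tested did, and 3 rose at 100 ng/mL, where 38.6% of all symbols did. Only SNHG19 fell at 50 ng/mL, and no host gene fell at 100 ng/mL, against 1.75% and 1.47% of all symbols. Host genes had medians of -0.083 and 0.042 on the log2 scale, where all symbols had 0.62 at both doses. The host genes therefore stood mostly where they were in vehicle, in libraries in which the typical gene had a higher FPKM: 13 of 24 (54.2%) were within 0.5 of vehicle on the log2 scale in both rhFGF19 libraries, against 25.4% of all symbols. At 50 ng/mL 21 of the 24 lay below the median of all symbols, and at 100 ng/mL 20 did.

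**Figure D1:**
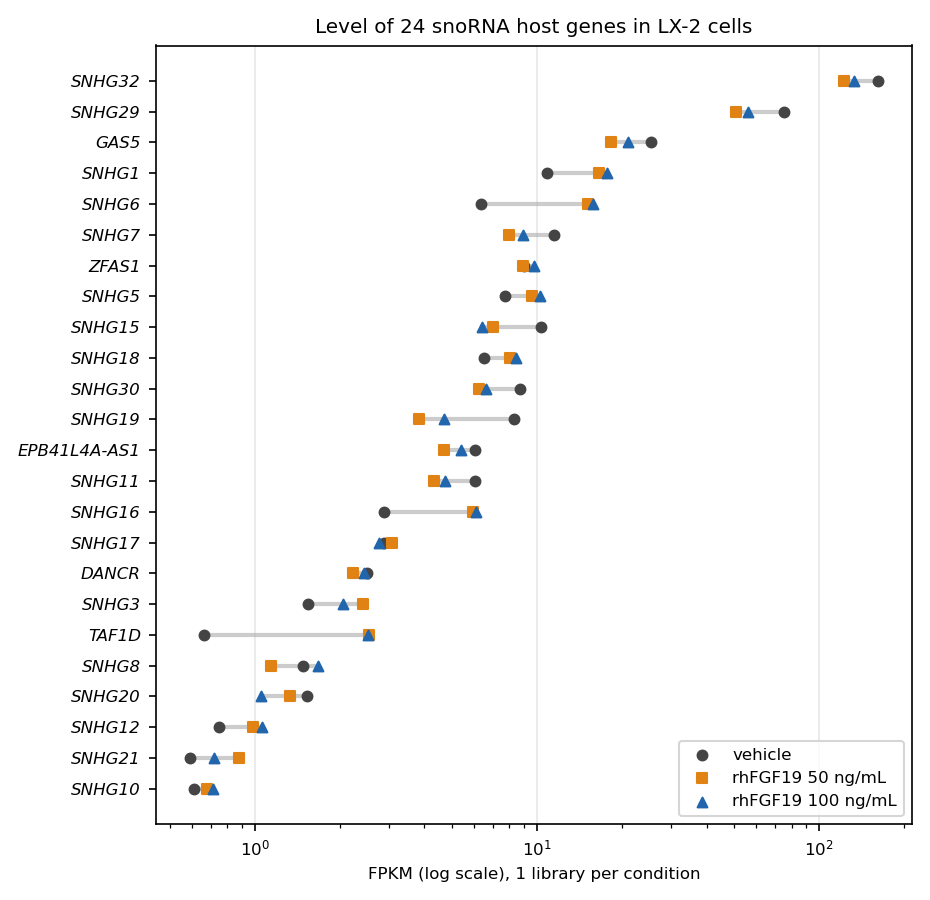
FPKM on a log axis of the 24 snoRNA host genes that passed the filter, with 1 point per library: vehicle (circle), rhFGF19 50 ng/mL (square) and 100 ng/mL (triangle). SNHG32, at 122 to 161 FPKM, lay well above the rest, and for TAF1D, SNHG6 and SNHG16 the vehicle point sat apart on the left.

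The levels spanned a wide range, and a few genes held most of it. SNHG32 (ENSG00000204387, chromosome 6 from 31834608 to 31839764), whose introns hold SNORD48 and SNORD52, had 161 FPKM in vehicle, 122 with the lower dose and 133 with the higher. Vehicle was the highest library, with log2 fold changes of -0.40 and -0.28. In vehicle its level was at percentile 97.7 of the symbols tested. SNHG29 (ENSG00000175061, chromosome 17 from 16438767 to 16473090), the host of SNORD49A, SNORD49B and SNORD65, was at 75.0, 50.7 and 56.1 FPKM in the same order. It too was highest in vehicle, with log2 fold changes of -0.56 and -0.42. Together SNHG32 and SNHG29 made up 63.9% of the summed FPKM of the host genes in vehicle, 56.4% with the lower dose and 56.9% with the higher. The sum over all 32 host genes was 370 FPKM in vehicle, 307 with the lower dose and 332 with the higher, and without SNHG32 and SNHG29 it was 134, 134 and 143. The lower total in the rhFGF19 libraries thus lay in the most abundant hosts.

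GAS5 (ENSG00000234741, chromosome 1 from 173858559 to 173868882, minus strand) had 25.4 FPKM in vehicle, 18.3 with the lower dose and 21.1 with the higher. Its log2 fold changes of -0.47 and -0.27 were short of 2-fold, and vehicle was the highest library. SNHG1 (chromosome 11 from 62851984 to 62855953, minus strand), whose 8 nested snoRNAs are all of the box C/D class, went the other way, at 10.8, 16.6 and 17.8 FPKM. Its log2 fold changes of 0.61 and 0.71 were also short of 2-fold. GAS5 and SNHG1 are the classical box C/D hosts, and they lay on opposite sides of vehicle in both rhFGF19 libraries.

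The 3 genes that rose did so at both doses, and for each the rhFGF19 libraries were close together. TAF1D (ENSG00000166012, chromosome 11 from 93729948 to 93784391, minus strand) had 0.66 FPKM in vehicle, 2.55 with the lower dose and 2.53 with the higher. It was at percentile 18.8 of the tested symbols in vehicle and rose by 1.80 and 1.79 (log2). SNHG6 (ENSG00000245910, chromosome 8 from 66921684 to 66926398, minus strand), host of SNORD87, was at 6.34, 15.2 and 15.8 FPKM and rose by 1.24 and 1.30. SNHG16 (ENSG00000163597, chromosome 17 from 76557764 to 76565348), host of SNORD1A, SNORD1B and SNORD1C, was at 2.88, 5.94 and 6.07 FPKM. Its log2 fold changes of 1.02 and 1.05 were just past the threshold, the closest of the host genes to it. With a pseudocount of 1, or with each rhFGF19 library scaled to a median ratio of 1 against vehicle, SNHG16 was no longer past 2-fold at either dose, while TAF1D and SNHG6 were. Quantile normalization ended all 3 calls at both doses (at 50 ng/mL TAF1D had 0.91 and SNHG6 0.88), and removal of a trend on transcript length ended those of SNHG6 (0.80) and SNHG16 (0.28). With the trend on GC content removed none of the 3 was past 2-fold. With that on mean level removed, chosen after seeing the data, only SNHG6 was, at 100 ng/mL (1.04). With TAF1D left out as a protein-coding gene, an alternative chosen after seeing the data, 2 of 23 host genes rose at each dose and the medians were -0.15 and -0.028.

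SNHG19 (ENSG00000260260, chromosome 16 from 2154797 to 2155358, minus strand), a short single-transcript host of SNORD60, had 8.33 FPKM in vehicle, 3.82 with the lower dose and 4.70 with the higher. On the log2 scale it differed from vehicle by -1.10 with the lower dose, past the threshold, and by -0.81 with the higher, short of it. Vehicle was the highest library, and both rhFGF19 values were well under it. With a pseudocount of 1 in place of 0.1, SNHG19 was no longer past 2-fold. It was past 2-fold at both doses with the median ratio set to 1 (-1.33 and -1.03) and with quantile normalization (-1.57 and -1.25). The same held with the trend on mean level removed (-1.78 and -1.48), chosen after seeing the data. With the trend on GC content (-1.08 and -0.80) or length (-1.13 and -0.91) removed, it was past 2-fold with the lower dose only.

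Of the other host genes that averaged at least 5 FPKM, 5 were highest in vehicle and stayed within 2-fold of it. SNHG7, host of the H/ACA snoRNAs SNORA17A and SNORA17B, had 11.5 FPKM in vehicle, 7.95 with the lower dose and 8.97 with the higher (log2 fold changes of -0.53 and -0.36). SNHG15, host of SNORA9, was at 10.3, 6.97 and 6.41 FPKM (-0.56 and -0.68). SNHG30, host of SNORD7, was at 8.70, 6.23 and 6.63 FPKM (-0.48 and -0.39). For SNHG7 and SNHG30 the lowest library was that of 50 ng/mL, and for SNHG15 it was that of 100 ng/mL. SNHG11, host of SNORA60 and SNORA71E, was at 6.02, 4.34 and 4.74 FPKM (-0.46 and -0.34). EPB41L4A-AS1, host of SNORA13, was at 6.02, 4.68 and 5.39 FPKM (-0.36 and -0.16), so these hosts had the same vehicle level and differed in how far the rhFGF19 libraries lay below it.

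SNHG5, host of SNORD50A and SNORD50B, had 7.72 FPKM in vehicle, 9.59 with the lower dose and 10.2 with the higher (log2 fold changes of 0.31 and 0.40). SNHG18, host of SNORD123, was at 6.52, 8.07 and 8.43 FPKM (0.30 and 0.37). In SNHG5 and SNHG18 vehicle was the lowest library. ZFAS1, which is antisense to the start of ZNFX1 and holds SNORD12, SNORD12B and SNORD12C, was at 9.02, 8.93 and 9.75 FPKM, with log2 fold changes of -0.01 and 0.11. Among the hosts that averaged at least 5 FPKM it moved least. Of the 14 such hosts, 1 (SNHG6) rose at each dose, whereas 23.3% of the 5620 symbols at this level rose with the lower dose and 22.6% with the higher. The medians of these 14 were -0.43 and -0.28, and those of all symbols at this level -0.05 and -0.03, so the distance between the host genes and all genes was smaller among well expressed genes.

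The remaining tested hosts had low levels, where an FPKM of 2 decimals is least certain. SNHG17, a host of several SNORA71 snoRNAs, had 2.88 FPKM in vehicle, 3.07 with the lower dose and 2.76 with the higher. DANCR, named for opposing the differentiation of progenitor cells and host of SNORA26, was at 2.50, 2.24 and 2.45 FPKM. Both stayed close to vehicle, with log2 fold changes of 0.09 and -0.06 for SNHG17 and of -0.15 and -0.03 for DANCR. SNHG3, host of SNORA73A and SNORA73B, which act in the cleavage of ribosomal RNA precursors, was at 1.54, 2.42 and 2.05 FPKM (0.62 and 0.39). SNHG12, whose introns hold SNORD99 and 3 SNORA genes, was at 0.75, 0.99 and 1.06 FPKM (0.36 and 0.45). For SNHG3 and SNHG12 vehicle was the lowest library. SNHG8, host of SNORA24, was at 1.48, 1.14 and 1.68 FPKM and lay below vehicle at 50 ng/mL and above it at 100 ng/mL (-0.35 and 0.17).

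The scaRNA hosts were all low. SNHG20 (SCARNA16) had 1.53 FPKM in vehicle, 1.34 with the lower dose and 1.05 with the higher, with log2 fold changes of -0.18 and -0.50. SNHG21 (SCARNA15) was at 0.59, 0.88 and 0.72 FPKM (0.51 and 0.25), and SNHG10 (SCARNA13) at 0.61, 0.68 and 0.71 FPKM (0.14 and 0.19). SNHG22 (SCARNA17) did not pass the filter, at 0.05, 0 and 0.06 FPKM. The vehicle library was the highest for SNHG20 and the lowest for SNHG21 and SNHG10.

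The other 7 hosts that did not pass the filter were listed at 0.70 FPKM or less in every library. SNHG9 had 0.70 FPKM in vehicle, 0.27 with the lower dose and 0.35 with the higher, and SNHG25 at 0.40, 0.70 and 0.33. SNHG14 was at 0.18, 0.48 and 0.50 FPKM, SNHG4 at 0.01, 0.28 and 0.30, and SNHG26 at 0.07, 0.27 and 0.17. SNHG14, SNHG4 and SNHG26 were lowest in vehicle. SNHG28 was at 0.03 FPKM in vehicle and 0 in both rhFGF19 libraries, and SNHG31 was at 0, 0.04 and 0.03.

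**Figure D2:**
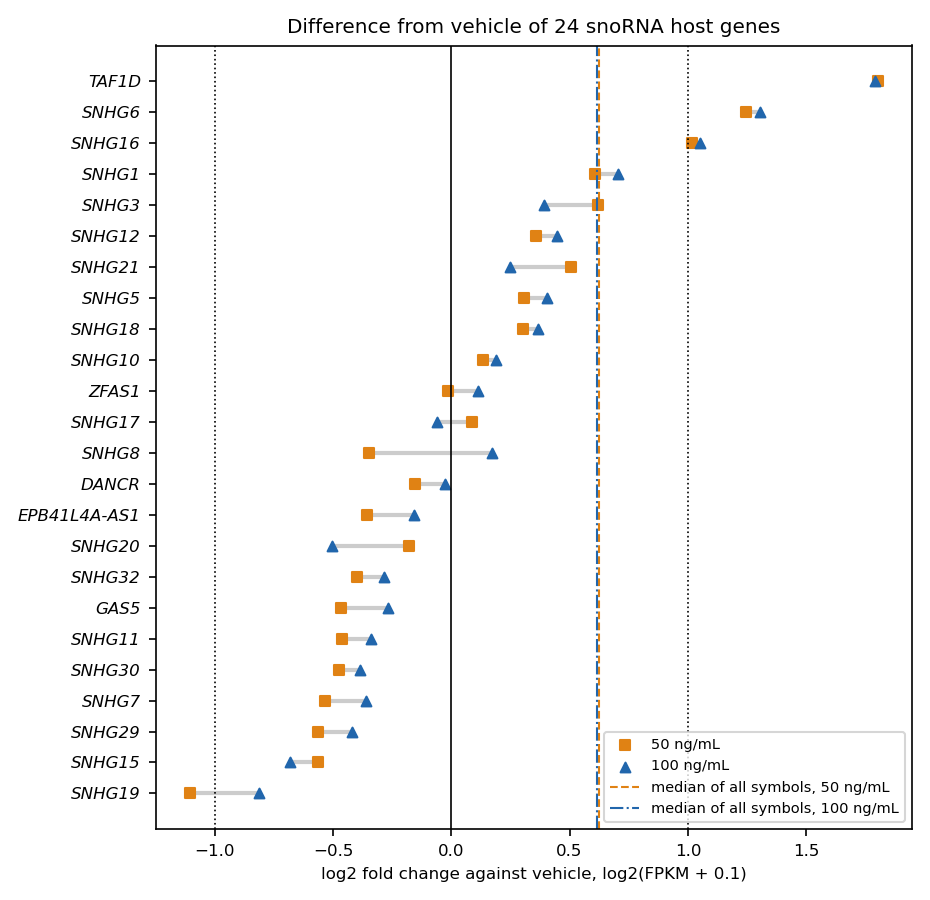
Log2 fold change against vehicle of the 24 host genes on the log2(FPKM + 0.1) scale at 50 ng/mL (square) and 100 ng/mL (triangle), with dotted lines at -1 and 1 and broken lines at the medians of all symbols (0.62 at both doses). Only TAF1D, SNHG6 and SNHG16 lie past 1, and SNHG19 lies past -1 at 50 ng/mL.

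Over the 24 tested genes, 10 were higher than vehicle in both rhFGF19 libraries and 11 were lower in both. SNHG8, SNHG17 and ZFAS1 changed sign between them. Taken by dose, 11 (lower) and 12 (higher) of the 24 were above vehicle, against 8143 and 8169 of the 12422 symbols tested. Between the rhFGF19 libraries, no host gene was more than 2-fold apart between 50 and 100 ng/mL, as against 1.63% of all symbols. The log2 difference of 100 from 50 ng/mL ran from -0.32 (SNHG20) to 0.52 (SNHG8), with an SD of 0.18 over the 24 genes and 0.32 over all symbols. The median absolute difference had the opposite order, 0.124 over the host genes and 0.0886 over all symbols. It was positive for 18 of the 24 and had a median of 0.092, where the median of all symbols was 0. With single libraries, a shift of this size cannot be told apart from the difference between any 2 libraries.

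The hosts were also read by the class of snoRNA carried. Of the 10 tested hosts of box C/D snoRNAs without H/ACA, 5 were above vehicle with the lower dose and 6 with the higher, 2 rose at each dose (20% against 39.5% and 38.6% of all symbols), and the medians were 0.14 and 0.24. Of the 8 tested hosts of H/ACA snoRNAs without C/D, 2 were above vehicle at each dose, 0 rose, and the medians were -0.35 and -0.11. Of all 12422 symbols tested, 8143 were above vehicle with the lower dose and 8169 with the higher. Relative to the trend of the fold change on GC content, the order of the classes was the reverse, with medians of -0.86 and -0.68 for the C/D hosts and -0.48 and -0.52 for the H/ACA hosts. The 3 with both classes (GAS5, SNHG12 and TAF1D) ranged from -0.47 to 1.80 at 50 ng/mL. GAS5 is among them because of 1 H/ACA snoRNA beside its 10 of box C/D, so the C/D medians above leave it out. Each class therefore held genes on both sides of vehicle.

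The nested snoRNAs could not be followed in these libraries. RNA was selected by poly(A), and mature snoRNAs have no poly(A) tail and are shorter than the inserts of these libraries. Of 59 rows of the table for snoRNAs nested in hosts other than SNHG14, 11 were at 0 in all libraries, 5 reached 1 FPKM in any, and the highest value was 1.52. SNORD48, in SNHG32, had 0.38 FPKM in vehicle, 0.30 with the lower dose and 0.67 with the higher, and SNORD52 was at 0.01 in each. The values above are those of the host RNA and say nothing of the amount of mature snoRNA.

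Over all genes in these libraries, transcripts with more GC had lower fold changes against vehicle, with a Spearman correlation of -0.77 at both doses across 12397 symbols. Across the 24 host genes it was -0.46 with the lower dose and -0.55 with the higher. These are descriptions across genes, which share the libraries and are not replicates. The median GC content of the tested host genes was 49.2%, with a range from 37.4% (TAF1D) to 59.9% (SNHG7), and that of all symbols was 51.1%, so the host genes had slightly less GC. A smooth trend of the fold change on GC content gave 1.52 for genes with the GC content of TAF1D at 50 ng/mL, 1.41 for SNHG6 and 1.15 for SNHG16. TAF1D lay 0.29 above its trend value at each dose. SNHG6 (-0.17 and -0.09) and SNHG16 (-0.13 and -0.08) lay slightly below theirs, so relative to genes of like GC content neither was higher.

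Most host genes lay below the trend, by very different amounts. The longest distances from it on the log2 scale were -1.89 and -1.79 for SNHG30, -1.86 and -1.64 for GAS5, and -1.78 and -1.24 for SNHG8. They were -1.44 and -1.22 for EPB41L4A-AS1, -1.40 and -1.24 for SNHG29, and -1.14 and -1.01 for SNHG32. SNHG19, with a GC content of 56.1%, lay at -1.08 and -0.80. Other hosts lay close to the trend, with -0.43 and -0.29 for DANCR, -0.27 and -0.17 for SNHG12, -0.21 and -0.10 for SNHG11, and 0.20 and 0.04 for SNHG17. In all, 22 of the 24 lay below the trend at both doses, and TAF1D and SNHG17 lay above it. By more than 2-fold, 8 were below with the lower dose and 6 with the higher, against 5.12% and 4.59% of all symbols. None was above by that much, where 3.74% and 3.33% of all symbols were. The median distance was -0.68 and -0.71. The vehicle library is the only one without rhFGF19, so a response of the cells and a property of that library cannot be told apart as the source of the GC trend.

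**Figure D3:**
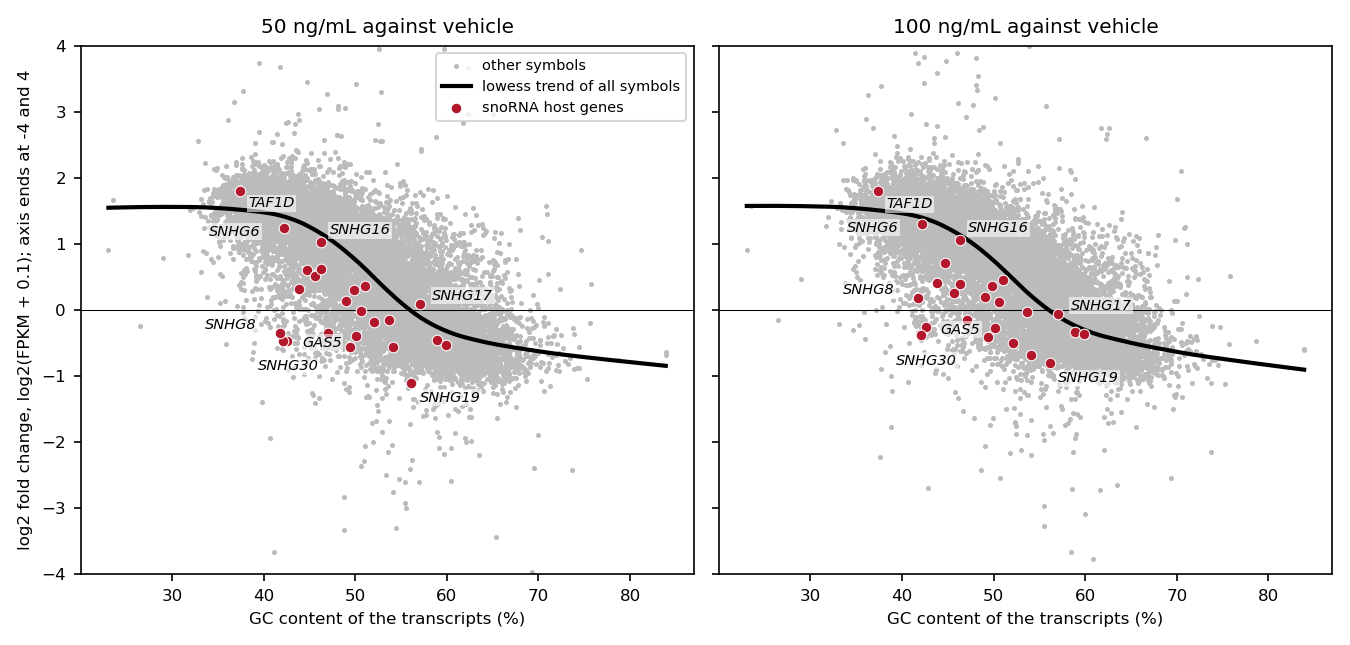
Log2 fold change against vehicle on the log2(FPKM + 0.1) scale by GC content of the transcripts in percent at 50 ng/mL (left) and 100 ng/mL (right), with host genes in red, other symbols in grey and the smooth trend of all symbols in black; symbols beyond -4 or 4 are not drawn. Of the 24 host genes, 22 lie below the black line in both panels, while TAF1D, SNHG6 and SNHG16 lie near it.

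Other gene groups around snoRNA production give the host genes a setting. Among the cytosolic ribosomal protein genes, which share the pyrimidine tract and hold snoRNAs in many of their introns, 8 of 81 (9.88%) rose with the lower dose and 10 (12.3%) with the higher, and 1 fell at each dose, where 39.5% and 38.6% of all symbols rose. Their medians were -0.42 and -0.34, and -0.73 and -0.65 after the GC trend was removed, close to the -0.68 and -0.71 of the host genes. The 27 tested protein-coding snoRNA hosts outside the ribosomal proteins, TAF1D among them, had medians of 1.44 and 1.37, and 17 of them (63.0%) rose at each dose. HSPA8, a constitutive heat shock chaperone and host of box C/D snoRNAs, had 98.7 FPKM in vehicle, 380 with the lower dose and 374 with the higher and rose by 1.94 and 1.92. EEF2, the elongation factor that moves the ribosome along, was at 646, 535 and 525 FPKM (-0.27 and -0.30). After removal of the GC trend the median of these coding hosts was 0.23 and 0.12, above the trend, where that of the host genes lay below it.

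Of the 8 tested core proteins of the snoRNP, the particle that a snoRNA forms, 3 rose at each dose (37.5%), a share close to that of all symbols (39.5% and 38.6%). The medians were 0.31 and 0.28, and -0.11 and -0.09 after the GC trend was removed. NOP58, a box C/D core protein, had 1.17 FPKM in vehicle, 4.85 with the lower dose and 5.34 with the higher and rose by 1.96 and 2.10. FBL, the methyltransferase of the same particle, was at 147, 117 and 115 FPKM (-0.34 and -0.35). DKC1, the pseudouridine synthase of the H/ACA particle, was at 3.19, 7.92 and 7.36 FPKM and rose by 1.29 and 1.18. The direction thus differed within a single particle.

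Of 11 tested snoRNP assembly factors 6 rose at each dose (54.5%), with medians of 1.30 and 1.27. RUVBL2, an ATPase of the assembly chaperone, was at 153, 86.8 and 92.5 FPKM (-0.81 and -0.72). Of 18 nonsense-mediated decay factors 8 rose at each dose (44.4%) and none fell, with medians of 0.85 and 0.81, where 39.5% and 38.6% of all symbols rose. UPF1, the central helicase of the pathway, was at 20.3, 23.4 and 22.6 FPKM (0.20 and 0.15). UPF2, its partner, was at 0.47, 1.59 and 1.69 FPKM and rose by 1.57 and 1.65. Among the decay factors that rose, UPF2, NBAS and UPF3B were under 0.5 FPKM in vehicle and passed the filter only through the rhFGF19 libraries. With the GC trend removed the medians were -0.15 and -0.11 for the assembly factors and 0.06 and 0.08 for the decay factors.

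The host genes were also set beside other long non-coding RNAs, a comparison chosen after their values were seen for the broad class. Of the 789 tested symbols whose transcripts are of the lncRNA type, host genes left out, 20.4% rose with the lower dose and 20.0% with the higher, with medians of 0.27 and 0.26, which lie between the host genes and all symbols. After removal of the GC trend the medians were -0.14 and -0.13. The 13 tested members of a list of well-known long non-coding RNAs had medians of 1.40 and 1.47, or 0.24 and 0.28 with the GC trend removed, and 8 (61.5%) rose at each dose, where 39.5% and 38.6% of all symbols did. NORAD, an abundant cytoplasmic RNA that binds PUMILIO proteins, had 13.8 FPKM in vehicle, 39.2 with the lower dose and 39.1 with the higher and rose by 1.50 and 1.49. MIR31HG, at 12.0, 15.3 and 13.5 FPKM, was short of 2-fold, with log2 fold changes of 0.35 and 0.17. Among the listed RNAs that rose, HOTAIR and NEAT1 were under 0.5 FPKM in vehicle and passed the filter only through the rhFGF19 libraries.

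**Figure D4:**
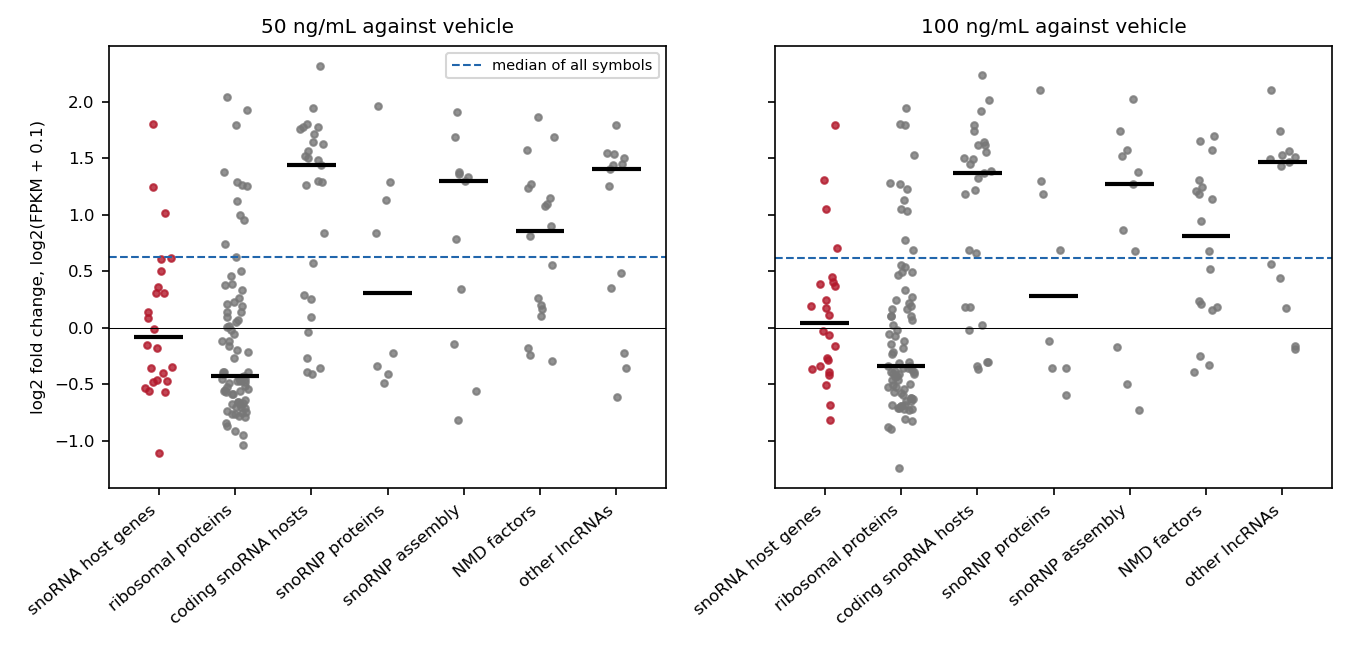
Log2 fold change against vehicle on the log2(FPKM + 0.1) scale at 50 ng/mL (left) and 100 ng/mL (right), 1 point per tested gene, with a black bar at each group's median and a broken line at the median of all symbols (0.62). The host genes (red) centre near 0 and the ribosomal proteins at -0.42 and -0.34, while the coding hosts outside the ribosomal proteins centre at 1.44 and 1.37.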

How the data were processed

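Poly(A) RNA of 3 LX-2 cultures was sequenced in paired ends. The authors deposited 1 table of FPKM values, 26108 gene rows by 3 libraries, and all of its columns of per-sample values were used. Their methods name HISAT2 and describe logCPM, but the table holds FPKM. The submitters' processing notes list HISAT2 2.0, StringTie 1.3.0, Bowtie 0.12.2 and the builds hg19 and mm8, with no role. The coordinates overlapped those of GENCODE v29 (GRCh38) for 99.8% of the 25531 identifiers found there, so they were read as GRCh38. Whether counting used strand is not given in the sources used here.

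Rows sharing a symbol were summed. Fold changes were differences of log2(FPKM + 0.1) for symbols averaging at least 0.5 FPKM, with the study's criterion of an absolute log2 fold change above 1. No test was run. GC content and length were medians over each gene's listed transcripts in GENCODE v29, and trends were lowess fits with a span of 0.3. Nested snoRNAs came from RefSeq positions, whose table gives no strand. Those that GENCODE v29 places only on the opposite strand were left out. Sequences came from RefSeq (GRCh38.p14) and GENCODE v29.

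The genes, the lists and the rule that all host genes be named were chosen with earlier results of these data known. The snoRNAs printed and the class of other long non-coding RNAs were chosen after values were seen. The lists were snoRNP proteins, assembly factors, nonsense-mediated decay factors, protein-coding hosts, ribosomal proteins, other long non-coding RNAs and cell type markers. Alternatives were other pseudocounts, filters and scalings, and removal of trends on GC content or length. Leaving out TAF1D and removing a trend on mean level were added after seeing the data. Python 3.11.15, NumPy 2.4.6, pandas 2.3.3, SciPy 1.17.1, statsmodels 0.14.6 and matplotlib 3.10.9 were used, and the procedure was tested on simulated data.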

Additional observations from a re-analysis of the deposited data

How the results depend on the processing

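No paired analysis was possible because each condition had 1 library and no test was run. For the same reason no replicate could be left out. The cause of the moves below was not tested beyond what each alternative's construction shows. With a pseudocount of 1, 0 host genes fell at 50 ng/mL, where 0.612% of all symbols did, and 2 rose at each dose (17.6% and 16.7% of all symbols). With a pseudocount of 0.01 or a minimum mean of 1 FPKM the counts did not change, and with TAF1D left out 2 rather than 3 rose at each dose. In these alternatives the medians moved by less than 0.18, the SD of the differences between the rhFGF19 libraries over the host genes. With a minimum mean of 1 FPKM they were -0.179 and -0.059, so the sign at 100 ng/mL changed. With no filter on low values, all 32 host genes entered, 6 were more than 2-fold higher with the lower dose (50 ng/mL) and 5 with the higher (100 ng/mL), and 2 were lower at 50 ng/mL, where 27.6% and 27.3% of all symbols were higher and 2.99% lower. With each rhFGF19 library scaled to a median ratio of 1 against vehicle, 2 host genes were higher at each dose (30.4% and 29.7% of all symbols). In that scaling 1 was lower at each dose (6.29% and 4.87% of all symbols). The medians were -0.31 and -0.18, where those of all symbols were 0.40 and 0.40.

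By construction, quantile normalization and the removal of a trend centre all genes near 0. With quantile normalization, 0 host genes were higher at either dose (9.19% and 8.42% of all symbols), and 4 and 3 were lower (9.85% and 9.02%). The medians were -0.48 and -0.53, where those of all symbols were 0.10 and 0.085. With the GC trend removed, 0 were higher at either dose (3.74% and 3.33% of all symbols), and 8 and 6 were lower (5.12% and 4.59%). The medians were -0.68 and -0.71. SNHG16 (-0.13 and -0.084) and SNHG6 (-0.17 and -0.089) then lay below 0. With the trend on transcript length removed, 1 was higher at each dose (14% and 13.6% of all symbols), 3 and 1 were lower (16.3% and 15.2%), and the medians were -0.48 and -0.37. With the trend on mean level removed, chosen after seeing the data, 0 and 1 were higher (8.94% and 8.52% of all symbols), 8 and 4 were lower (12.7% and 11.9%), and the medians were -0.50 and -0.57. The count of host genes more than 2-fold apart between the doses stayed at 0 under every alternative for which it was recomputed. The depth of the libraries is unknown, so low values such as those of SNHG10, SNHG12 and SNHG21 have no interval.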

Other observations

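Several host genes overlap another gene, and whether the counting used strand is not given in the sources used here, so their values may share fragments. SNHG3 lies wholly within RCC1 on the same strand, and RCC1, with 15.2 FPKM in vehicle, 18.1 with the lower dose (50 ng/mL) and 17.2 with the higher (100 ng/mL), had log2 fold changes of 0.25 and 0.18 where SNHG3 had 0.62 and 0.39. SNHG20 shares strand and position with SEC14L1, which was at 7.46, 16.0 and 16.1 FPKM and rose by 1.09 and 1.10, while SNHG20 had -0.18 and -0.50. On the opposite strand, ZNFX1 was at 9.96, 22.7 and 20.9 FPKM and rose by 1.18 and 1.06 where ZFAS1 had -0.01 and 0.11. DIPK1B, which overlaps SNHG7, was at 6.73, 3.60 and 3.82 FPKM, with log2 fold changes of -0.88 and -0.80 where SNHG7 had -0.53 and -0.36. UBE3A, which overlaps SNHG14 on the opposite strand, was at 0.40, 1.56 and 1.54 FPKM and rose by 1.73 and 1.71, while SNHG14 stayed under the filter. Under 0.5 FPKM in vehicle, UBE3A passed the filter only through the rhFGF19 libraries. C11orf54, which overlaps TAF1D on the opposite strand, was at 0.27, 0.80 and 0.68 FPKM, so it was under 0.5 FPKM in vehicle. It rose by 1.28 and 1.08 where TAF1D had 1.80 and 1.79. CEP295 and MED17, with shorter overlaps of TAF1D, were also higher than vehicle. At 0.20 and 0.43 FPKM in vehicle, they too passed the filter only through the rhFGF19 libraries. These pairs were chosen after their values were seen.

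A row named AL671762, which covers nearly all of SNHG32 on the same strand, was listed at 0 in vehicle and with the higher dose and at 2.01 FPKM with the lower, small beside the 122 to 161 FPKM of SNHG32.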
